A study of Mus musculus with 6 samples.

Results

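The genes described here are 40 cell cycle genes, followed across the cells of mouse spleen. They were chosen by name out of the 32285 genes counted, with earlier results of these data known. Of the 40, 14 act at the start of DNA replication or during it and are called S members, 22 act in the chromosome and spindle events of G2 and mitosis and are called G2/M members, and 4 (Stmn1, Hmgb2, Tubb5 and Tuba1b) rise in dividing cells but are also made by many resting cells. The spleens came from wild-type (WT) C57BL/6 mice that were 6 weeks old when they were put on 1 of 2 diets, labelled ND and MCDHFD, for 7 weeks. The labels describe the MCDHFD animals as a mouse model of MASH, an inflammatory fatty liver disease. Each diet has 3 libraries of whole splenocytes, made with a 10x Genomics 3′ kit. Nothing in the labels ties a library to a single animal, so p-values measure the spread between these libraries, which may be technical.

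A cell that divides first licenses its replication origins, loading the MCM helicase with the help of Cdc6 and Cdt1, and cyclin E with its kinase then starts S phase. Ribonucleotide reductase (Rrm1 and Rrm2) supplies the nucleotides and PCNA clamps the polymerases to DNA. Cyclin A and cyclin B with Cdk1 drive the cell into mitosis, where kinesins, centromere proteins, the Aurora and Polo kinases and the Bub checkpoint proteins handle the chromosomes, and the anaphase-promoting complex with Cdc20 and Ube2c ends mitosis by destroying cyclin B. Mouse spleen is a site of lymphocyte proliferation in germinal centres, and, unlike human spleen, it also makes red cells and neutrophils throughout life. Replication genes are largely switched on by E2F factors. Many mitotic genes are controlled by the DREAM and MuvB complexes, which act through a CHR element (cell cycle genes homology region). CCAAT boxes that bind NF-Y often lie nearby.

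The 250 bases before the RefSeq transcription start (build GRCm38.p6) were searched on both strands for 3 short motifs in the 33 members that had an entry. The first was CHR, searched as TTTGAA and also in the known variant form TTCGAA. The second was the box CCAAT. The third was an E2F motif, searched as TTTCCCGC and as TTTGGCGC. CHR letters stood before 9 of 19 G2/M members and 2 of 11 S members, against 19.6% of all 27025 genes with a promoter entry. CCAAT was found before 17 of 19 G2/M members, 8 of 11 S members and 37.5% of all genes. The E2F letters were present before 4 of 11 S members (Mcm5, Mcm6, Mcm7 and Cdc6), before 0 of 19 G2/M members and before 1.51% of all genes. Of the 3 windows shown, Top2a and Mki67 are the G2/M members used most in the results and Mcm6 is an S member with an E2F match. Each window ends at the base before the gene's annotated start and reads 5′ to 3′ on the gene's own strand, and capitals mark every match to the 3 motifs on either strand.
Top2a, chr11:99024190-99024439, minus strand, 4 CHR and 6 CCAAT matches: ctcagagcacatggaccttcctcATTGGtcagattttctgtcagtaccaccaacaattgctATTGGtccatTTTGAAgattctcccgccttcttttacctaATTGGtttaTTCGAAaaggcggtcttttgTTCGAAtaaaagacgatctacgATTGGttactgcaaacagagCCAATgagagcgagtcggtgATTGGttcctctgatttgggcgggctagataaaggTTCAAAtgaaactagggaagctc
Mki67, chr7:135716380-135716629, minus strand, 2 CHR and 3 CCAAT matches: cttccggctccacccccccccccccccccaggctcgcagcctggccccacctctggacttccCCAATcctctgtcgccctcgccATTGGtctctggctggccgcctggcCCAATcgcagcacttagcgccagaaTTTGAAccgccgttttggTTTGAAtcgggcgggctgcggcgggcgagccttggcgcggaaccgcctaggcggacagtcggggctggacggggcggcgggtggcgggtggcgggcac
Mcm6, chr1:128359706-128359955, minus strand, 2 E2F and 2 CCAAT matches: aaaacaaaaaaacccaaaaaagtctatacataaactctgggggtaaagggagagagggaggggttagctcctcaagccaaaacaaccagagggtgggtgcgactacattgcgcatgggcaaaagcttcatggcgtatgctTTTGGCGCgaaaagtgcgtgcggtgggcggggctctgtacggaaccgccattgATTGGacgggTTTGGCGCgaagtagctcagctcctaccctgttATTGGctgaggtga
In Top2a and Mki67 the CHR and CCAAT matches lie in 1 window with no E2F match, and in Mcm6 the reverse holds for CHR and E2F. A match of letters does not show that a factor binds there.

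Cells with at least 1000 UMIs (unique molecular identifiers, each standing for 1 captured RNA molecule) and at most 10% mitochondrial UMIs were kept, 3278 to 6625 per library, with a median depth of 4462 to 6186 UMIs. Cells were put in 9 classes by marker UMIs, none of which is a member: B cells (Cd79a), plasma cells (Jchain and Xbp1), T cells (Cd3e), NK cells (Ncr1 without Cd3e), monocytes and macrophages (Csf1r), neutrophils (S100a8, split into immature and mature by Camp and Ngp), dendritic cells (Flt3 with H2-Aa) and erythroid cells (Klf1). A cell can meet more than 1 rule, and 6.41% to 15.4% of the kept cells per library did. Such cells can be doublets, cells carrying free RNA of others, or cells that make both markers, and no doublet caller was run. So the diet results are also given for the cells that met 1 rule only. ND replicate 2 and MCDHFD replicate 3 list filtered barcodes from Cell Ranger 7.2.0 and the other 4 libraries list unfiltered ones from 9.0.1, and both forms occur in each diet. The pair with filtered lists stood apart, with median mitochondrial shares of 0.569% and 1.68% against 3.73% to 3.96%. Pairs of libraries shared at most 18 kept barcodes.

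A few markers that the rules did not use are given here, for the erythroid, immature neutrophil and dendritic classes only. Erythroid cells had the erythropoietin receptor Epor in a median of 62.4% of cells, against 0.28% of B cells, and immature neutrophils had Ltf in 95.9% and Cebpe in 86.7%. Elane and Mpo, also set as immature neutrophil markers, were detected in a few cells of the mature class, as given at the end. The dendritic class also held the B cell genes Cd79b (62.0% of cells) and Ms4a1 (53.4%). Only 154 of its 490 MCDHFD cells and 126 of its 389 ND cells met no other rule. Nearly every plasma cell also met the B cell rule, which leaves plasma cells out of any count over cells of 1 rule.

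Cells with many cycle genes were most frequent among erythroid cells and immature neutrophils and least frequent among B and T cells. Depth differs between classes (median 18088 to 63418 UMIs in erythroid cells per library against 3776 to 6068 in B cells), and a deeper cell shows more genes, so each cell was first thinned to 1000 UMIs at random. After thinning, at least 3 G2/M members were detected in 33.9% ± 5.89 of erythroid cells (SD, n = 6 libraries), 20.4% ± 9.88 of immature neutrophils, 5.14% ± 5.61 of plasma cells, 4.44% ± 2.63 of dendritic cells and 2.12% ± 1.35 of monocytes and macrophages. The share was 1.70% ± 1.77 in mature neutrophils, 1.45% ± 1.25 in NK cells, 0.670% ± 0.422 in B cells and 0.613% ± 0.328 in T cells. The values from plasma cells down to NK cells overlap between libraries, as do those of B and T cells. These shares cover all cells of each class. In MCDHFD replicate 3 only 16 of the 70 immature neutrophils met no other rule. The median depth of the 70 was 3909 UMIs, against 12219 to 21170 UMIs in the other libraries. MCDHFD replicate 2 holds 11 immature neutrophils. Unthinned, the same shares were 77.1% in erythroid cells, 38.1% in immature neutrophils, 1.99% in B cells and 2.04% in T cells.

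S members separated erythroid cells from all other classes. At least 3 of the 14 were detected in 29.3% ± 6.07 of thinned erythroid cells (SD, n = 6), with libraries between 21.0% and 37.5%, whereas the immature neutrophils, next in order, had 2.14% ± 0.955 and every other class less. Immature neutrophils thus came next to erythroid cells in the G2/M share, and their S share was near that of dendritic cells (1.86% ± 1.99). Over the 36 pairs of classes, 18 kept 1 order in all 6 libraries for the G2/M share and 17 for the S share. With 6 libraries the exact two-sided sign-flip permutation test cannot give a p below 0.03125, and after Benjamini-Hochberg adjustment over 36 pairs the smallest p was 0.0625 for G2/M and 0.0662 for S, so no pair passed 0.05.

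**Figure D1:**
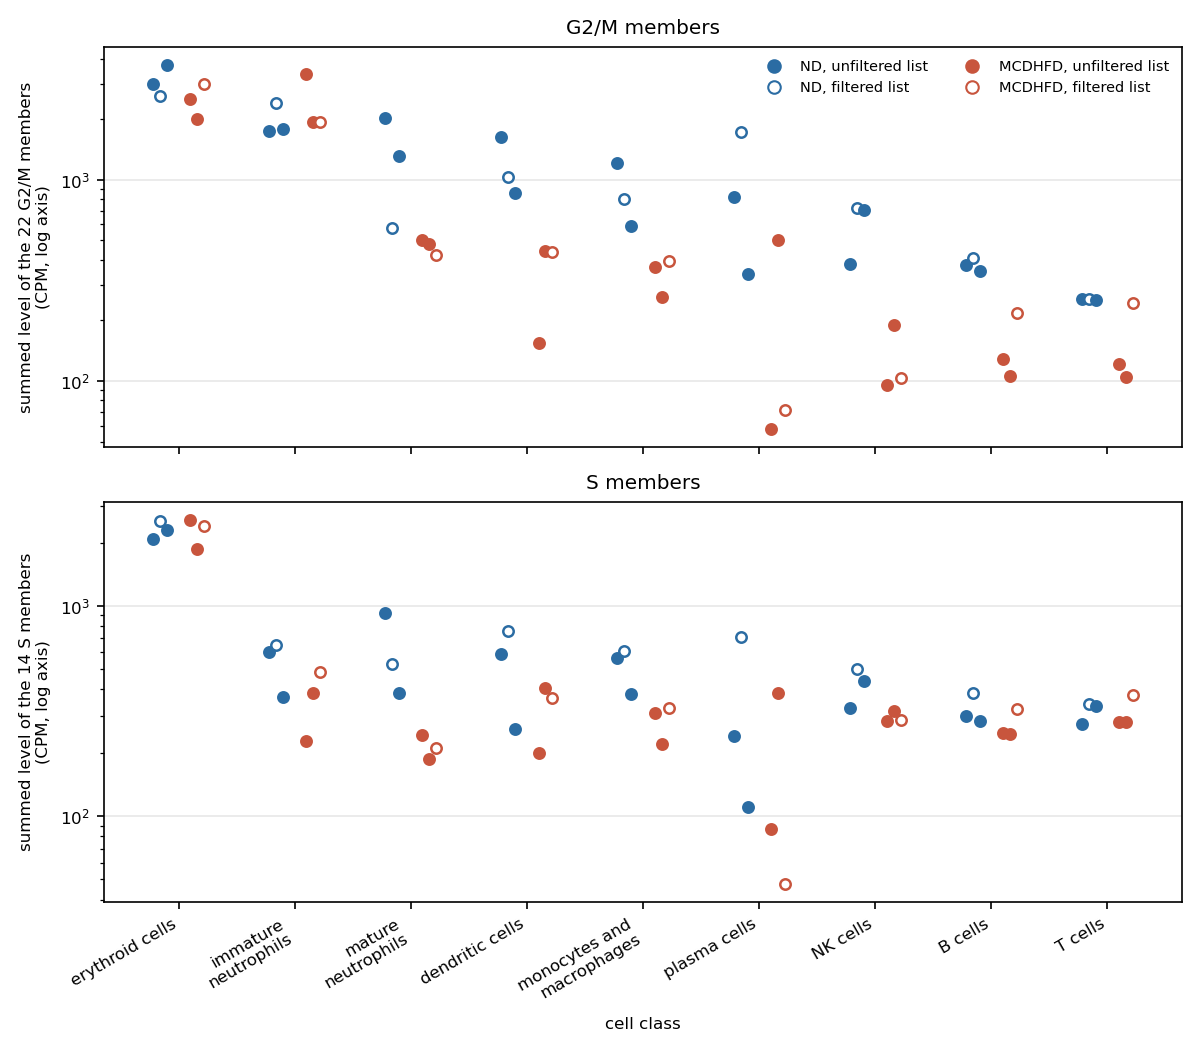
Summed level of the 22 G2/M members (top) and the 14 S members (bottom) per class, in UMIs per 1000000 UMIs of that class (CPM) on a log axis; each point is 1 library, blue for ND and red for MCDHFD, open for filtered barcode lists. Erythroid cells lie highest in both panels, with G2/M sums of 1997 to 3710 CPM and S sums of 1856 to 2566 CPM, while immature neutrophils are near them only in the top panel (1742 to 3347 CPM).

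Single members followed the same order. Levels are given in CPM (UMIs of the gene per 1000000 UMIs of the class), from 3′ capture and not divided by gene length. All 14 S members, 18 of 22 G2/M members and 3 of the 4 broadly expressed ones had their highest mean level in erythroid cells. Pcna, the polymerase clamp, was at 374, 283 and 406 CPM in ND erythroid cells and 449, 352 and 221 CPM in MCDHFD ones, and at 86.3 CPM or less on average in every other class. Rrm1, the large subunit of ribonucleotide reductase, averaged 256 CPM in erythroid cells and 47.8 CPM in immature neutrophils. Mcm7, a subunit of the replicative helicase, averaged 239 CPM and 37.0 CPM. The origin licensing factor Cdc6 was at 80.1 CPM in erythroid cells and at 10.0 CPM or less in every other class.

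The G2/M members were shared between erythroid cells and immature neutrophils. Mki67, which coats mitotic chromosomes, averaged 434 CPM in erythroid cells, 274 CPM in immature neutrophils and 34.3 CPM in B cells. Top2a, the topoisomerase that untangles sister DNA, averaged 326, 260 and 32.0 CPM in those classes. Cenpa, the centromeric histone, averaged 261 CPM in erythroid cells and 135 CPM in immature neutrophils. Birc5 (survivin, of the chromosomal passenger complex) averaged 226 and 162 CPM there. Ube2c, Cenpf and Nusap1 were highest in immature neutrophils: Ube2c averaged 293 CPM there and 247 CPM in erythroid cells, Cenpf 93.1 and 86.7 CPM, and Nusap1 98.0 and 79.2 CPM, with library ranges that overlap for all 3. Hmgb2, a DNA-bending protein, was also highest there, at 3108 CPM against 1874 CPM in erythroid cells.

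Kif23, a kinesin of the midzone spindle, broke the pattern. Its level in mature neutrophils was 92.8, 89.8 and 152 CPM with ND and 171, 129 and 47.9 CPM with MCDHFD, against 30.5 CPM on average in erythroid cells and 9.0 CPM in B cells. Immature neutrophils came next, at 44.5 to 91.0 CPM, which overlaps the mature neutrophil values. Every library of either neutrophil class lay above every erythroid library, whose values ran from 13.7 to 39.9 CPM. In mature neutrophils that met no other rule Kif23 averaged 157 CPM, and the G2/M share of these cells was low.

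**Figure D2:**
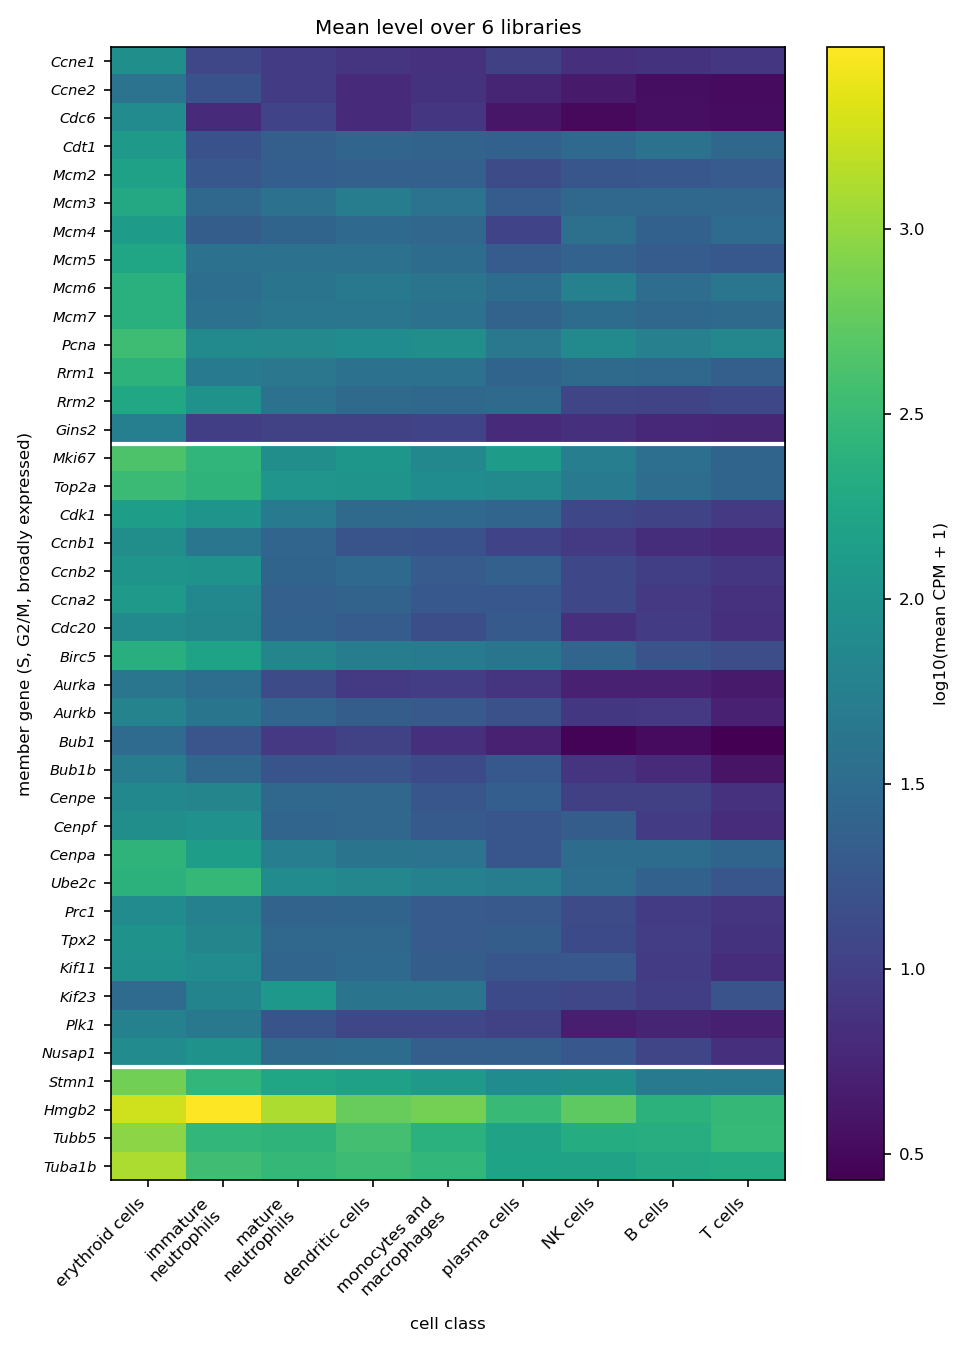
Mean level of each member over 6 libraries in the 9 classes, as log10(CPM + 1); white lines separate the S, G2/M and broadly expressed members. The S block is bright mainly in the erythroid column, the G2/M block in the erythroid and immature neutrophil columns, and Kif23 is brightest in mature neutrophils (114 CPM).

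In erythroid and B cells, most cells with 3 or more G2/M members also showed S members, without thinning. Over all cells of the class, at least 3 S members were detected in 85.3% of erythroid cells and 12.1% of B cells (means over libraries). In erythroid cells 98.2% of the G2/M-positive cells of MCDHFD replicate 3 had at least 3 S members too, and 100% in each of the other 5 libraries. In B cells that part was 72.4%, 83.9% and 65.6% with ND and 82.8%, 75.0% and 54.5% with MCDHFD. Other classes varied more. In MCDHFD replicate 3 the part was 20.6% in immature neutrophils, 36.7% in monocytes and macrophages and 33.3% in mature neutrophils. G2/M-positive B cells were deep, with a median of 17282 UMIs in ND replicate 1 against 5197 UMIs in the other B cells of that library.

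Fewer splenocytes were G2/M-positive in 2 of the 3 MCDHFD libraries. Without thinning, 285, 155 and 146 cells with at least 3 G2/M members were found with ND (4.35%, 4.73% and 2.94% of kept cells) and 109, 90 and 131 with MCDHFD (1.65%, 1.36% and 3.71%). MCDHFD replicate 3 lies within the ND range, and the other MCDHFD libraries lie below it. In that library 43.5% of the positive cells met more than 1 class rule, against 19.9% to 36.7% in the other 5. B cells made up 40.7%, 40.0% and 43.8% of the positive cells in ND and 26.6%, 35.6% and 25.2% in MCDHFD. Of all kept cells they made up 64.5%, 61.7% and 63.9% in ND and 46.5%, 46.2% and 44.2% in MCDHFD. Their part of the positive cells was thus below their part of the kept cells in every library.

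Within classes, the G2/M share was lower with MCDHFD in B cells, NK cells, monocytes and macrophages and mature neutrophils, without overlap between the diets after thinning. In B cells it was 0.891%, 1.35% and 0.692% with ND and 0.205%, 0.263% and 0.627% with MCDHFD. NK cells had 1.62%, 3.70% and 1.81% with ND and 0.476%, 0.573% and 0.541% with MCDHFD. Those of monocytes and macrophages were 4.19%, 3.30% and 1.80% against 0.865%, 0.838% and 1.74%, the last close to the lowest ND value. In mature neutrophils the difference rests on few cells. Unthinned, 31, 8 and 3 were positive with ND and 12, 10 and 3 with MCDHFD. Of these, 2, 1 and 1 with ND and 0, 2 and 1 with MCDHFD met no other rule. T cells overlapped, at 0.874%, 0.916% and 0.612% against 0.202%, 0.224% and 0.852%. The exact two-sided permutation test of 3 against 3 gave p = 0.1 for each of the 4 classes without overlap, which is the smallest it can give (0.225 after adjustment over 9 classes). The share of erythroid cells was 35.7% ± 6.41 with ND and 32.0% ± 5.91 with MCDHFD (SD, n = 3 each), with overlap.

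In cells that met 1 rule only, the G2/M shares did not overlap between the diets in B cells, T cells, NK cells and monocytes and macrophages after thinning. Unthinned, 139 of 8520 ND B cells and 27 of 6522 MCDHFD B cells were positive, at 1.72%, 1.69% and 1.49% per library against 0.376%, 0.414% and 0.499%. In T cells 49 of 2632 were positive with ND and 22 of 4198 with MCDHFD, at 1.61%, 2.21% and 1.87% against 0.393%, 0.762% and 0.407%. In monocytes and macrophages the numbers were 24 of 520 and 11 of 1145. MCDHFD replicate 3 sits with the other MCDHFD libraries in these counts. The restriction to 1 rule removed a larger part of the positive B and T cells in every MCDHFD library than in any ND library. Of the positive B cells, 66 of 116, 29 of 62 and 44 of 64 met 1 rule with ND. With MCDHFD they were 10 of 29, 11 of 32 and 6 of 33. In T cells they were 17 of 28, 16 of 24 and 16 of 25 against 6 of 17, 11 of 19 and 5 of 38. How far this loss adds to the diet difference was not tested. NK cells had 14 of 351 positive with ND and 5 of 440 with MCDHFD, too few to place single libraries. Unthinned, the NK shares of the libraries overlapped.

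Mature neutrophils do not divide, but the rule for this class does not exclude dividing precursors. A few of its cells carried genes of early granule formation (Elane in a median of 1.7% of cells). Its shares are therefore set beside the others as values and not as the level of a class without dividing cells. Among its cells of 1 rule, 4 of 286 ND cells and 3 of 481 MCDHFD cells were positive, at 1.56% ± 0.357 and 0.809% ± 0.772 unthinned and 0.380% ± 0.321 and 0.110% ± 0.172 thinned (SD, n = 3). This share was itself lower on average with MCDHFD, with overlap between the libraries both thinned and unthinned. With ND, B cells of 1 rule were at 1.63% ± 0.123 and T cells at 1.90% ± 0.302 unthinned, and at 0.533% and 0.575% thinned, close to the ND mature neutrophils. With MCDHFD, B cells were at 0.429% ± 0.0630 and T cells at 0.521% ± 0.209 unthinned, and at 0.104% and 0.162% thinned, close to or below the MCDHFD mature neutrophils. The mature neutrophil share rests on 4 and 3 positive cells and may include precursors, so it cannot settle which positive B and T cells of 1 rule were cycling. The shares alone do not show this in either diet. Unthinned, positive B cells of 1 or more rules had a mean of 9.45 to 12.6 G2/M members per library. The means were 8.68 to 12.1 in such T cells and 9.0 to 21.0 in such mature neutrophils. The part of free RNA, mixed droplets or neutrophil precursors in the mature neutrophil share was not tested. Median depths in cells of 1 rule were 2729.5 to 4255 UMIs in mature neutrophils and 3539 to 5794 UMIs in B cells.

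**Figure D3:**
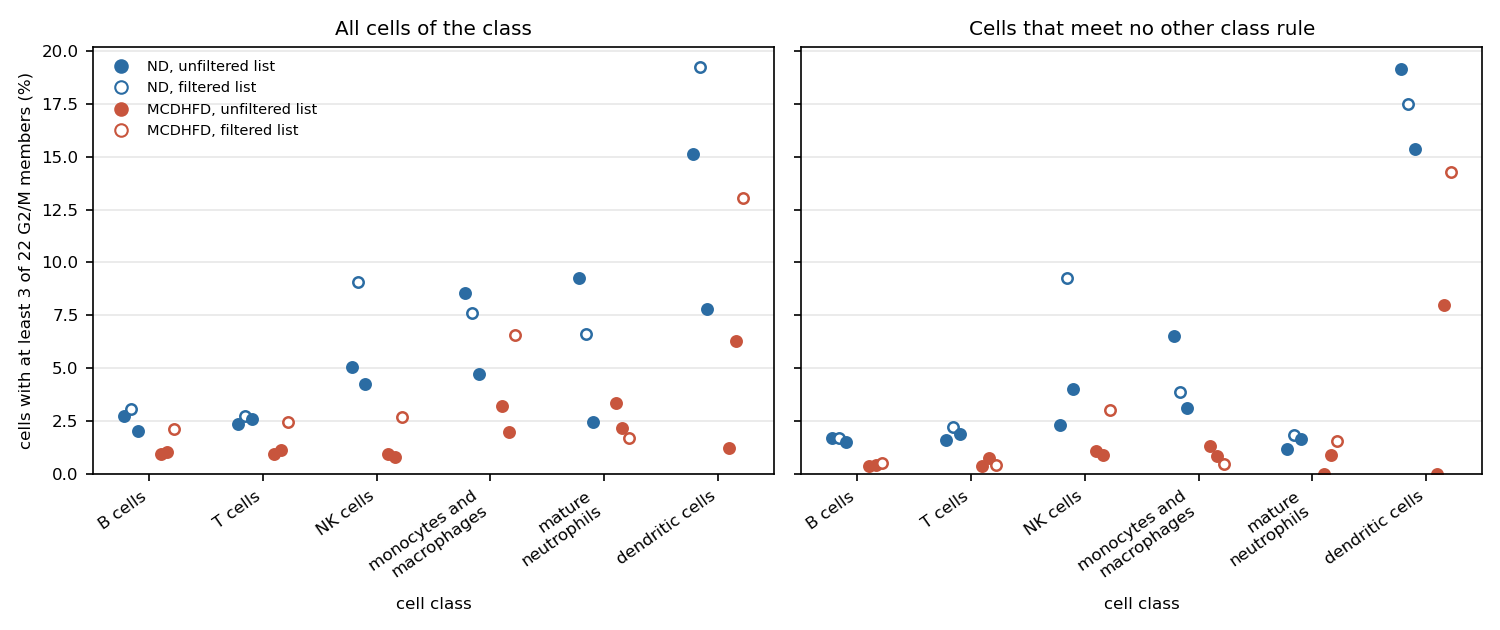
Percent of cells with at least 3 of 22 G2/M members, unthinned, in 6 classes, for all cells of the class (left) and for cells that met no other class rule (right); each point is 1 library, blue for ND and red for MCDHFD, open for filtered lists. On the right the 3 MCDHFD libraries lie below the 3 ND libraries in B cells (0.376% to 0.499% against 1.49% to 1.72%), T cells, monocytes and macrophages and dendritic cells. On the left MCDHFD replicate 3 (open red) lies among the ND points in these classes, below them in NK cells, and lowest of all libraries in mature neutrophils (1.72%).

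S shares showed less of a difference. At least 3 S members were detected in 0.466%, 0.759% and 0.307% of thinned ND B cells and 0.210%, 0.204% and 0.294% of MCDHFD ones, which do not overlap (exact permutation p = 0.1, adjusted 0.3). In T cells the values were 0.380%, 0.870% and 0.565% against 0.230%, 0.302% and 0.577%, with overlap. Without thinning the mean S share was 12.1% ± 2.40 with ND and 12.2% ± 0.784 with MCDHFD in B cells, and 19.6% ± 0.613 against 22.4% ± 2.78 in T cells (SD, n = 3 each). The unthinned difference in B cells is far smaller than these SDs. In B cells of 1 rule the difference was -0.151 percentage points thinned and -1.02 unthinned. In T cells of 1 rule it was -0.224 and 3.01, and the libraries overlapped in each case. The cause of the changes of sign was not tested.

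Levels of single members were tested on UMIs summed per library and class, with edgeR's quasi-likelihood test and terms for list form and diet, adjusted by Benjamini-Hochberg over all genes tested in the class. In such sums, fewer dividing cells and less RNA per dividing cell cannot be told apart. With diet as the only term, 0 members passed in any of the 7 classes tested. That fit called 0% of all genes as lower in B cells, T cells, NK cells, monocytes and macrophages, mature neutrophils, dendritic cells and erythroid cells alike. The calls that follow therefore rest on the term for list form, which compares the diets within each form. Immature neutrophils and plasma cells had libraries with 11 and 19 cells and were not tested.

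In B cells 25 of 40 members were lower with MCDHFD and 0 higher, where 2.68% of all 13798 genes tested were called lower and 1.68% higher. The 25 comprised 19 of 22 G2/M members, 4 of 14 S members (Rrm2, Mcm5, Mcm3 and Rrm1) and 2 of 4 broadly expressed ones (Stmn1 and Hmgb2). The median difference was -1.56 (log2) over G2/M members, -0.43 over S members and 0.00 over all genes. In B cells of 1 rule, 29 of 40 members were lower, where 6.92% of all genes were. The count fell to 2 without ND replicate 1, 7 without ND replicate 3, 5 without MCDHFD replicate 1 and 6 without MCDHFD replicate 2.

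The clearest B cell genes act on chromosomes and spindles. Cenpe, a kinesin at kinetochores, was at 14.8, 12.1 and 14.6 CPM with ND and 4.69, 4.71 and 3.80 CPM with MCDHFD, a difference of -1.72 ± 0.11 (log2, SE; adjusted p = 0.0029). Nusap1, which bundles spindle microtubules, was at 15.8, 15.8 and 17.5 CPM against 5.65, 4.36 and 6.01 CPM (-1.71 ± 0.14, adjusted p = 0.0061). Each of the MCDHFD libraries lies below each of the ND libraries for both genes. Mki67 was at 45.6, 71.6 and 34.9 CPM against 15.4, 12.7 and 25.4 CPM, again with no overlap (-1.57 ± 0.14, adjusted p = 0.0061). Top2a, whose promoter is shown above with 4 CHR matches, was at 49.1, 48.6 and 45.6 CPM against 15.8, 12.6 and 20.3 CPM (-1.66 ± 0.14, adjusted p = 0.0061). Its ND libraries lie close together and none of its MCDHFD libraries comes near them.

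The next 4 G2/M genes of B cells were also lower without overlap. In each class the called genes were named by their p in these same data. A lack of overlap among them therefore adds no separate support, and its share over all genes is not given here. Kif11, the kinesin that pushes spindle poles apart, fell from 12.0 ± 1.26 to 4.47 ± 0.958 CPM (SD, n = 3 each). Prc1, which crosslinks midzone microtubules, fell from 12.1 ± 0.705 to 4.59 ± 1.24 CPM and Cenpf, a kinetochore protein, from 13.2 ± 2.76 to 3.91 ± 0.742 CPM. Birc5 was at 22.3, 22.5 and 22.9 CPM with ND and at 6.42, 6.01 and 12.8 CPM with MCDHFD (-1.61 ± 0.21, adjusted p = 0.018), with MCDHFD replicate 3 highest of its diet. Among S members, Mcm5 was at 19.5, 30.6 and 18.8 CPM against 14.9, 15.6 and 21.1 CPM. These values overlap between the diets, and the test compares them within each list form (-0.45 ± 0.08, adjusted p = 0.031).

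**Figure D4:**
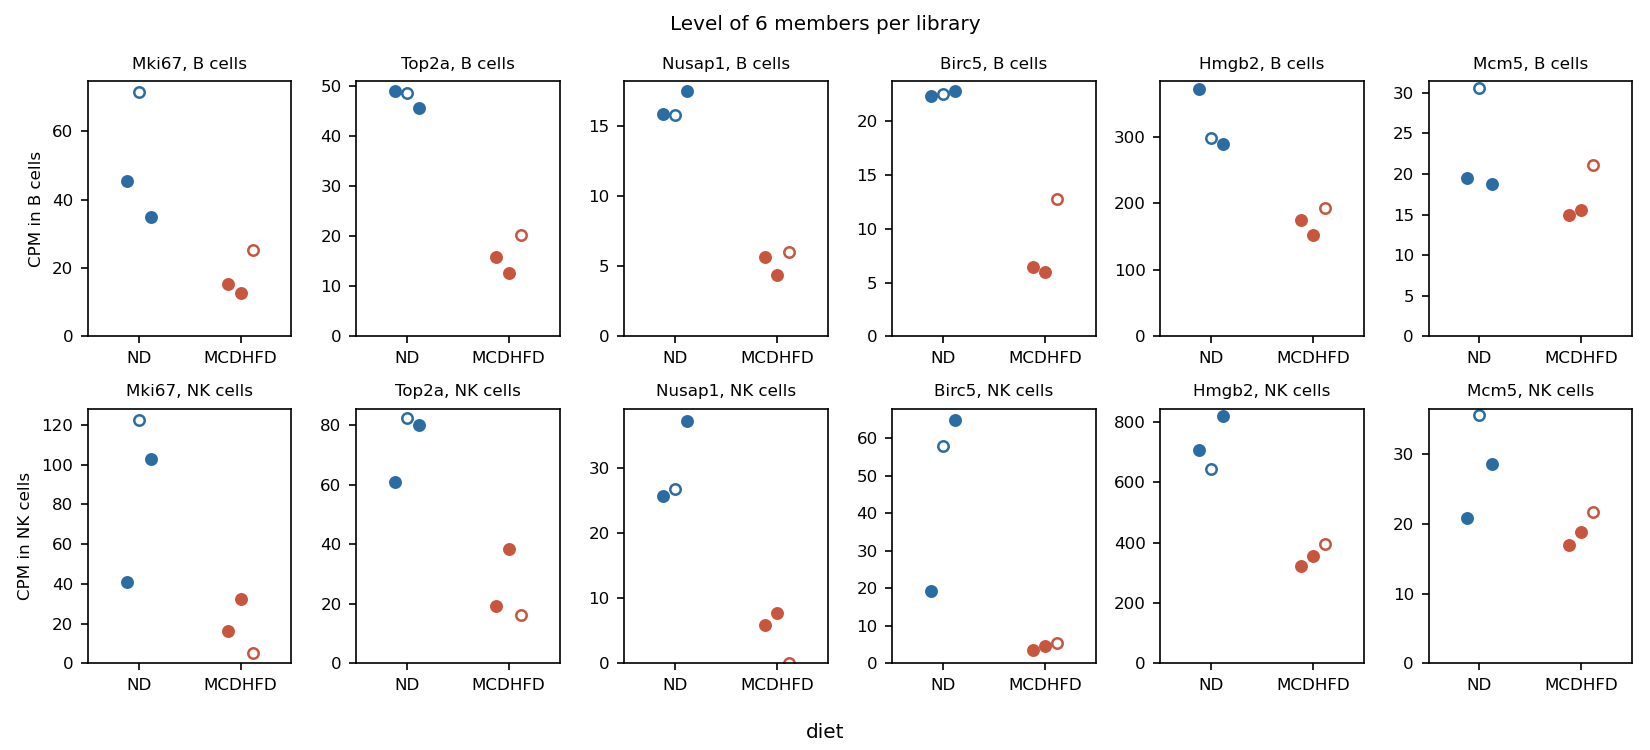
Level in CPM of 6 members in B cells (top) and NK cells (bottom); each point is 1 library, ND in blue and MCDHFD in red, open for filtered lists, and each axis starts at 0. Mki67, Top2a, Nusap1, Birc5 and Hmgb2 show no overlap between the diets in either class, whereas Mcm5 overlaps in both.

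In NK cells 29 members had enough counts to be tested, and 14 of the 29 were lower with MCDHFD and 0 higher, against 1.83% and 1.18% of 8727 genes. They were 10 of 15 tested G2/M members and all 4 broadly expressed ones, with 0 of 10 S members (4 of the 10 at an unadjusted p under 0.05). Ube2c, the ubiquitin-conjugating enzyme of the anaphase-promoting complex, was at 43.2, 105 and 40.0 CPM with ND and 2.21, 7.14 and 5.42 CPM with MCDHFD (-3.30 ± 0.35, adjusted p = 5.8e-04). Hmgb2 was at 708, 643 and 820 CPM against 321, 356 and 396 CPM (-1.12 ± 0.16, adjusted p = 0.0052). Birc5 was at 19.2, 57.9 and 64.8 CPM against 3.69, 4.55 and 5.42 CPM (-3.36 ± 0.51, adjusted p = 0.0060). No MCDHFD library reached the lowest ND library in these 3 genes, but the MCDHFD values of Ube2c rest on 3, 11 and 1 UMIs and those of Birc5 on 5, 7 and 1. Kif11 and Nusap1 were also called, Tuba1b (alpha tubulin) was called although its values overlap (127, 343 and 173 against 89.9, 77.3 and 130 CPM), and cyclins Ccna2 and Ccnb1 were called from 2, 2 and 0 and from 1, 3 and 0 UMIs with MCDHFD.

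MCDHFD replicate 3 holds 37 NK cells. In NK cells of 1 rule, 12 of the 22 tested members were lower, where 3.49% of all genes were. Without MCDHFD replicate 1 the count over all NK cells was 1, and without MCDHFD replicate 2 it was 3. DESeq2 called 4 members.

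In T cells 3 of 40 members were lower with MCDHFD and 0 higher, against 1.45% and 0.886% of 12525 genes. Prc1 was at 7.96, 10.6 and 8.97 CPM with ND and 2.96, 3.55 and 6.18 CPM with MCDHFD (-1.22 ± 0.21, adjusted p = 0.027). Hmgb2 fell from 379 ± 59.5 to 209 ± 35.1 CPM and Stmn1, which destabilises microtubules, from 61.7 ± 7.60 to 33.8 ± 9.66 CPM. Top2a, at 35.1, 26.1 and 37.3 CPM against 11.3, 13.6 and 25.5 CPM, did not pass (adjusted p = 0.075). The median difference was -0.96 over G2/M members and -0.12 over S members. In T cells of 1 rule 13 of the 38 tested members were lower, where 3.8% of all genes were, and 1 member, Kif23, was higher. The count of 3 became 20 without ND replicate 2 and 21 without MCDHFD replicate 3, the libraries with filtered lists, and 0 without any of the other 4 libraries in turn.

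In monocytes and macrophages 4 of 40 members were lower with MCDHFD and 0 higher, against 0.645% and 0.314% of 11158 genes. Top2a was at 189, 121 and 79.4 CPM with ND and 35.5, 32.4 and 36.5 CPM with MCDHFD (-1.93 ± 0.30, adjusted p = 0.035). Nusap1 fell from 33.3 ± 14.7 to 10.2 ± 1.64 CPM, Mcm5 from 44.3 ± 18.0 to 18.3 ± 5.27 CPM and Birc5 from 71.7 ± 21.3 to 23.5 ± 6.72 CPM. All 4 genes vary more among the ND libraries than among the MCDHFD ones in CPM, and none of the 4 overlaps. In cells of 1 rule 0 of 24 tested members passed, where 0.312% of all genes did. The count of 4 became 0 without ND replicate 2 or any one MCDHFD library, 1 without ND replicate 1 and 15 without ND replicate 3.

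In the dendritic class 10 of the 38 tested members were lower with MCDHFD and 0 higher, against 0.724% and 0.672% of 9673 genes, and all 10 were G2/M members. Prc1 was at 59.1, 23.8 and 33.9 CPM with ND and 10.5, 14.1 and 7.51 CPM with MCDHFD (-1.91 ± 0.27, adjusted p = 0.0090). Mki67 was at 184, 211 and 121 CPM against 22.7, 56.0 and 68.9 CPM (-1.84 ± 0.27, adjusted p = 0.0099). Neither gene overlapped between the diets. Ube2c fell from 117 ± 37.9 to 19.5 ± 13.6 CPM, and Nusap1, Top2a, Cenpe, Cenpf, Kif11, Aurka and Kif23 also passed. In cells of 1 rule 5 of the 27 tested members were lower, where 0.556% of all genes were. The part that cells also meeting the B cell rule have in the other counts was not tested further. The count of 10 became 0 without ND replicate 1, 1 without MCDHFD replicate 3, 5 without ND replicate 2 and 23 without MCDHFD replicate 2.

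In mature neutrophils 0 of 38 tested members passed with edgeR (33 at an unadjusted p under 0.05, and 9 passed with DESeq2), where 0% of 9063 genes were called in either direction. The smallest p-values belonged to Mcm5 (72.9, 62.4 and 46.2 CPM with ND, 16.8, 13.7 and 13.5 CPM with MCDHFD), Stmn1 and Prc1, each with adjusted p = 0.093. ND replicate 1 was highest for all 3. Of this class 286 of 577 ND cells and 481 of 991 MCDHFD cells met 1 rule only, and in its cells of 1 rule 5 members had enough counts and 0 passed, where 0.166% of all genes did. The count became 10 without ND replicate 2 and 7 without MCDHFD replicate 3.

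Erythroid cells, with the highest levels of all, showed no call. Of 40 members 0 passed in either direction with edgeR or with DESeq2, 5 had an unadjusted p under 0.05, and 0.0218% and 0.0871% of 9189 genes were called lower and higher. The medians were -0.37 over G2/M members and -0.08 over S members. Tpx2, a spindle assembly factor, was at 108, 114 and 124 CPM with ND and 70.0, 67.3 and 116 CPM with MCDHFD (-0.52 ± 0.19, adjusted p = 0.66). Mki67 was at 376, 537 and 547 CPM against 450, 247 and 447 CPM. These values overlap. The libraries hold 25 to 67 erythroid cells each, and the size of difference that this class could show was not tested.

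**Figure D5:**
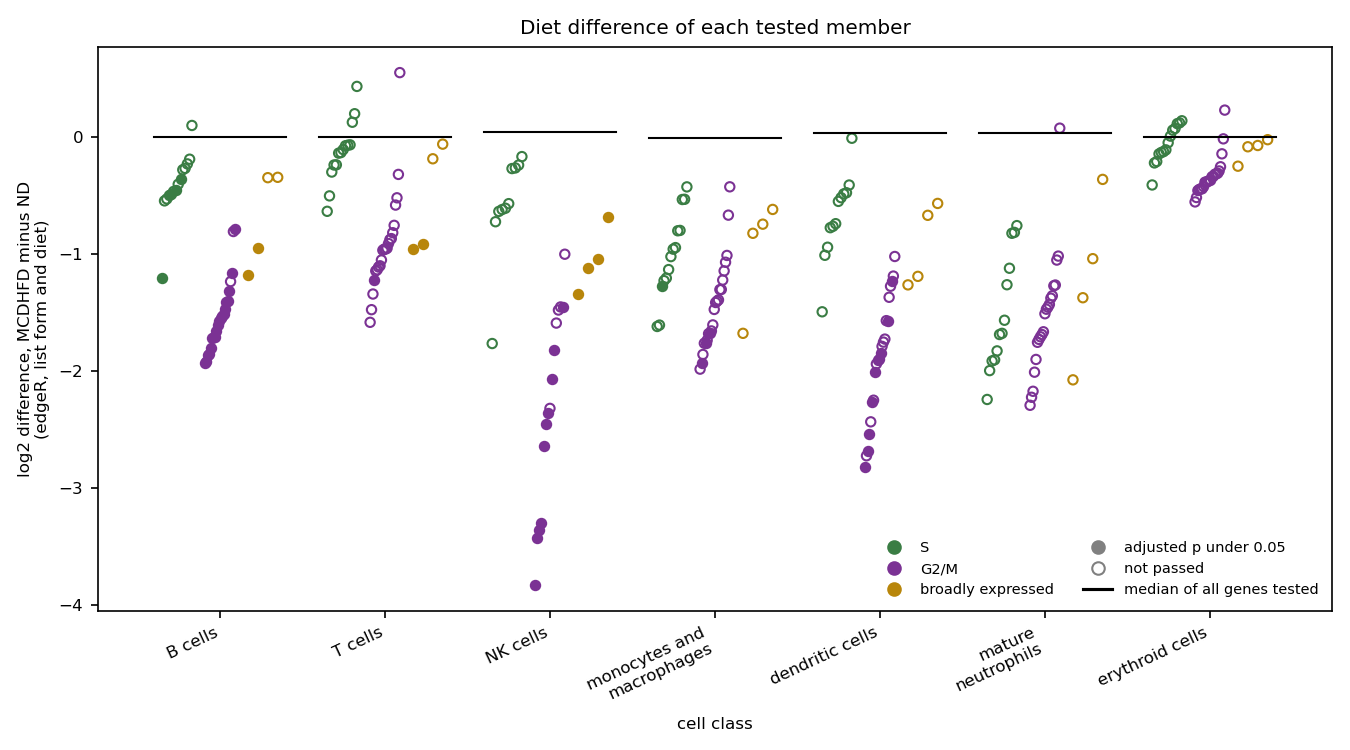
Diet difference of each tested member in 7 classes, MCDHFD minus ND on the log2 scale, from edgeR with list form and diet; filled points passed an adjusted p of 0.05, colours separate S (green), G2/M (purple) and broadly expressed members (gold), and black lines give the median of all genes tested. In B cells the G2/M points (median -1.56) lie below the S points (median -0.43), and in erythroid cells none is filled (G2/M median -0.37).

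Whether the diet difference itself differed from that in erythroid cells was tested with an interaction term, with the library as a block. In B cells 6 of 40 members had a more negative difference, where 0.184% of 12468 genes differed in either direction. They were Top2a (-1.23, adjusted p = 0.030), Stmn1, Birc5, Ccna2, Kif11 and Cdk1. In NK cells it was 2 of 40, Ube2c (-2.83, adjusted p = 0.049) and Birc5, where 0.099% of 10099 genes differed. In the other classes 0 of 40 members passed: T cells (0.107% of all genes, 13 members at an unadjusted p under 0.05), monocytes and macrophages (0.00869%, 26 members), mature neutrophils (0%, 20 members) and dendritic cells (0%, 24 members). The B cell count was 0 without ND replicate 1 or MCDHFD replicate 2, 1 without ND replicate 2 and 2 without MCDHFD replicate 3. In NK cells it was 0 without either library with a filtered list, 1 without MCDHFD replicate 1, 3 without ND replicate 3 and 6 without ND replicate 1 or MCDHFD replicate 2. The count of 0 became 15 in monocytes and macrophages and 3 in mature neutrophils without ND replicate 3, and in T cells it became 2 without MCDHFD replicate 1. Without the term for list form it was 0 in both B cells and NK cells.

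Other genes of the pathway were read from 3 lists of replication (26 genes), mitosis (38 genes) and cycle control (32 genes), none of them members. In B cells 18 of 38 mitosis genes, 3 of 26 replication genes and 4 of 32 control genes were lower with MCDHFD and 0 higher, against the same 2.68% of all genes lower. Hmmr, a spindle protein, was at 10.4, 7.46 and 9.87 CPM with ND and 2.87, 2.53 and 2.82 CPM with MCDHFD (-1.85 ± 0.17, adjusted p = 0.0079). Among control genes were Cdk6 (-0.68 ± 0.07, adjusted p = 0.0099) and Ccnd2 (-0.55 ± 0.09, adjusted p = 0.026), a kinase and a cyclin that act together in G1, and E2f2 (-0.91 ± 0.10, adjusted p = 0.012). DNA ligase Lig1 was at 21.1, 26.3 and 21.3 CPM against 12.2, 14.3 and 17.1 CPM (-0.72 ± 0.09, adjusted p = 0.017).

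In the remaining classes the lists gave fewer calls, all of them lower. NK cells had 6 of 18 tested mitosis genes and 1 of 15 replication genes (1.83% of all genes), with Cks2, a Cdk-binding protein, at 46.4, 69.0 and 81.0 CPM against 16.2, 21.4 and 16.3 CPM. Dendritic cells (0.724% of all genes) had 6 of 34 mitosis genes, 1 of 24 replication genes and 1 of 29 control genes, Ccnd1 (cyclin D1), at 188, 254 and 231 CPM against 103, 118 and 100 CPM. Monocytes and macrophages (0.645% of all genes) had 4 of 26 replication genes, 0 of 38 mitosis genes and 1 of 29 control genes, again Ccnd1, at 32.9, 36.0 and 37.2 CPM against 15.6, 19.4 and 19.2 CPM. In T cells 1 of 37 mitosis genes (Smc4, a condensin subunit) and 2 of 29 control genes (Cdc25b and Cdkn2c) passed, where 1.45% of all genes did, so the mitosis count is near the background. In mature neutrophils and erythroid cells 0 passed in each list.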

How the data were processed

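Splenocytes of 6 libraries were read from the deposited UMI counts per gene and barcode, which the authors made with Cell Ranger on mm10 (version 9.1.0, with Seurat 4.3.0, per the submitters' processing notes; 9.0.1 and 7.2.0 per the file headers). Filtered barcodes only are listed for 2 libraries. Total counts per library were 21259837 to 62238012 UMIs, of which 77.4% to 99.5% lay in kept cells; intervals would cover counting error only and none is given. The member genes, class rules and gene lists were chosen with earlier results of these data known.

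Kept cells had at least 1000 UMIs and at most 10% mitochondrial UMIs. Class rules asked for at least 2 UMIs of Cd79a, 5 of Jchain with 3 of Xbp1, 5 of S100a8, 5 of Camp and Ngp together, 3 of H2-Aa, and 1 of each other marker. Shares are means over 20 random thinnings to 1000 UMIs and were compared over libraries by exact two-sided permutation tests (scipy 1.17.1). Summed counts, in classes with at least 20 cells per library, were tested with edgeR 4.0.16 (R 4.3.3; filterByExpr, TMM, quasi-likelihood F test, list form and diet, Benjamini-Hochberg); the SE is the log2 difference over the square root of F. On simulated T cell counts with 200 of 12525 genes changed by 1 (log2), 75% were recovered and 17 other genes called; for dendritic cells (9673 genes) it was 57.5% and 14. DESeq2 1.42.0 and other settings were alternatives. In each tested class, the named members are those past the threshold (the 8 with the smallest p where more passed; the 3 with the smallest p, as values, where none did); across classes they are the 3 S and 5 G2/M members highest in erythroid cells, and per list up to 3 called genes. Cdc6, Kif23, Cenpf, Nusap1 and Hmgb2 across classes, Top2a in T cells and Mki67 in erythroid cells were chosen after their values were seen, as were Mcm5 in B cells and the interaction test. Ccna2, Ccne2, Cdc20, Mcm7, Gins2, Ube2c, Prc1, Nusap1 and Tuba1b overlap a counted gene of the other strand; the kit marks strand, but whether the counting used it is not given in the sources used here. Promoters of 7 members were not analysed here.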

Additional observations from a re-analysis of the deposited data

Results flagged for a closer look

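For 8 results the diet difference differed between 2 classes by a test of that difference (edgeR interaction of class and diet, adjusted over all genes, chosen after seeing the data). Relative to erythroid cells, the difference in B cells was more negative by -1.23 (log2) for Top2a, -1.0 for Stmn1 and -1.10 for Birc5, each with adjusted p = 0.030. It was more negative by -1.08 for Ccna2, -1.24 for Kif11 and -1.30 for Cdk1, each with adjusted p = 0.049. In NK cells it was -2.83 for Ube2c and -2.75 for Birc5, each with adjusted p = 0.049. MCDHFD replicate 2 holds 25 erythroid cells and MCDHFD replicate 3 holds 37 NK cells, and the part of these small numbers was not tested.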

How the results depend on the processing

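In the order B, T, NK, monocytes and macrophages, mature neutrophils, dendritic and erythroid cells, members called numbered 25, 3, 14, 4, 0, 10 and 0. They numbered 0 in all 7 classes with diet alone; 28, 8, 4, 20, 9, 9 and 0 with DESeq2; 24, 3, 14, 4, 0, 12 and 0 with RLE size factors; and 28, 12, 23, 36, 29, 32 and 0 with no filter on low counts. With the 4 unfiltered lists alone they were 33, 22, 16, 0, 11, 1 and 0, and with cells of 1 rule 29, 14, 12, 0, 0 and 5, erythroid cells being too few. The replicate block gave 28, 21, 18, 36, 6, 29 and 0. Same-numbered B cell libraries correlated at 0.57, -0.66 and -0.63, but the sign of these correlations followed list form. ND replicate 2 and MCDHFD replicate 3, both with filtered lists, correlated at 0.75. The correlations therefore cannot show whether the numbers pair the samples, and the block is given only as an alternative. Leaving out each library gave 2 to 33 in B cells, 0 to 21 in T cells, 1 to 16 in NK cells, 0 to 15 in monocytes and macrophages, 0 to 10 in mature neutrophils, 0 to 23 in dendritic cells and 0 in erythroid cells. In T cells 1 member was called higher with no filter, with the block and in cells of 1 rule (Kif23 in the last); all other T cell calls were lower. No named member changed direction: 264 values kept their call and 135 lost it.

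Interaction counts were 0 in B and NK cells without list form. Leaving out each library they ran from 0 to 7 in B, 0 to 2 in T and 0 to 6 in NK cells, 0 to 15 in monocytes and macrophages, 0 to 3 in mature neutrophils and 0 in dendritic cells.

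Class pairs past 0.05, 0 as reported, became 24 without thinning and 26 when thinned to 2000 UMIs for all members, and 24 without thinning for G2/M members.

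Share differences (MCDHFD minus ND, percentage points) turned sign as follows. Without thinning, all-member shares were 0.090 in B cells, 1.96 in monocytes and macrophages and 5.40 in mature neutrophils; S shares 0.0709 in B cells, 2.77 in T cells and 0.601 in mature neutrophils; and the erythroid G2/M share 2.53. Thinned to 2000 UMIs, the B cell all-member share was 0.0482. The plasma cell S share was 0.828 with unfiltered lists, and the erythroid S share -0.963 with a mitochondrial limit of 5%. Leaving out each library gave -1.84 to 0.174 for the B cell all-member share, -1.99 to 11.2 for the immature neutrophil G2/M share, -1.92 to 0.296 for the plasma cell S share and -3.47 to 4.78 for the erythroid S share. The cause of these changes was not tested. G2/M shares of B, NK, monocyte, T, dendritic and mature neutrophil classes were lower with MCDHFD under every setting run. Small libraries limit what can be compared: the fewest cells per library were 11 in immature neutrophils, 19 in plasma cells, 25 in erythroid cells and 37 in NK cells.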

Other observations

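Cells that met no class rule also held G2/M-positive cells: 9, 6 and 9 in the ND libraries (2.95%, 5.56% and 2.49% of such cells) and 18, 8 and 11 in the MCDHFD libraries (2.07%, 1.03% and 7.05%), without thinning.

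Kif23 in T cells went the other way from the remaining G2/M members. It was at 13.5, 10.8 and 11.9 CPM with ND and 15.9, 18.8 and 21.4 CPM with MCDHFD, with no overlap (0.55 ± 0.16, log2 and SE; adjusted p = 0.11), and in T cells of 1 rule it was higher by 0.70 (edgeR, adjusted p = 0.021). It was chosen after its values were seen.

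The mature neutrophil class held a few cells with genes of early granule formation: Elane was detected in a median of 1.7% of its cells and Mpo in 1.2%, at mean levels of 1010 and 854 CPM, whereas Ltf and Cebpe of the immature class were at 4.6 and 14.3 CPM.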
